A study of Homo sapiens with 6 samples.

Results

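SR proteins and hnRNPs are the nuclear RNA-binding proteins that choose which exons of a pre-mRNA are spliced in. Their transcripts were followed in NCI-H1299, a human line grown from non-small cell lung cancer. The members were chosen by symbol. They were all genes of the deposited table named SRSF with a number, all whose symbol begins with HNRNP and has no hyphen, and TRA2A and TRA2B. That gave 36 of 16070 listed genes, of which 12 were SRSF genes, 2 were TRA2 genes and 22 were hnRNP genes. Of the 36, 34 averaged 0.5 FPKM or more over all libraries and were tested. The symbols decided membership, but the set was proposed with the difference between treated and control cells already known. The fold changes and calls below therefore describe the members, and nothing about the set as a whole is supported by them.

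Control cells received vehicle (0.1% DMSO) and treated cells 25 µM of 6p, a derivative of the bacterial fatty acid synthesis inhibitor platensimycin, for 48 h. Each group had 3 libraries, and all 6 came from the same line in medium with serum. One label field calls the controls untreated, while the protocol gives them vehicle. For the 6p samples no DMSO percentage was recorded here, so whether it matched that of the controls is not known. The samples are described as independent, with nothing on separate cultures or days, so the p-values measure only the spread between these samples. Because RNA was taken in bulk, fewer cells of a kind and less RNA per cell cannot be told apart. Between 16775655 and 19957335 fragments lay behind each library, and a single fragment in a 2 kb gene was worth 0.0251 to 0.0298 FPKM (fragments scaled to gene length and to the library's total). Of the epithelial and mesenchymal markers checked for the line, KRT8, KRT18 and VIM were present, from 281 FPKM upward. PTPRC, PECAM1, COL1A1, COL3A1 and ALB, markers of other cell types, stayed at or below 0.317 FPKM.

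SR proteins carry RNA recognition motifs and a tail rich in arginine and serine. Bound to exonic enhancers, they help the spliceosome recognise the neighbouring splice sites, and kinases of the SRPK and CLK families phosphorylate the tail and so govern where the proteins reside. hnRNPs coat nascent transcripts, often bind silencers in introns and exons, and many of them oppose SR proteins. Both families are known to regulate their own transcripts through exons that introduce premature stop codons. In GENCODE release 29, all 14 tested SRSF and TRA2 genes had at least 1 transcript annotated to nonsense-mediated decay, as had 13 of 20 tested hnRNP genes and 43.6% of 11503 tested genes found there. The FPKM values are per gene, so protein-coding and decay-prone transcripts of a member cannot be told apart here.

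Most hnRNP transcripts and several SR transcripts were lower in 6p-treated cells. In limma on log2(FPKM + 1), 20 of the 34 tested members were lower at adjusted p under 0.05, a threshold that 25.1% of all 11745 tested genes passed as lower. No member was called higher, against 21.3% of all tested genes. The count of higher members was also 0 at an unadjusted p under 0.05 in limma, and 0 with limma voom on recovered fragments. Some other alternatives, given at the end, had 1 or 2 higher members. Calls fell on 15 of 20 hnRNP genes, 4 of 12 SRSF genes and 1 of 2 TRA2 genes. The median log2 fold change was -0.46 over hnRNP genes and -0.13 over SRSF genes, beside -0.04 over all tested genes. In 24 members all 3 6p libraries lay below all 3 controls, in 3 they lay above, and in 7 the groups overlapped. Over all tested genes the first pattern held for 31.5% and the second for 26.0%. The members are abundant, with a median of 93.3 FPKM against 8.71 for all tested genes. Among the 5445 tested genes averaging 10 FPKM or more, 26.2% were called lower and 23.6% higher, and the 6p libraries lay below all controls in 32.6% and above them in 28.3%.

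**Figure D1:**
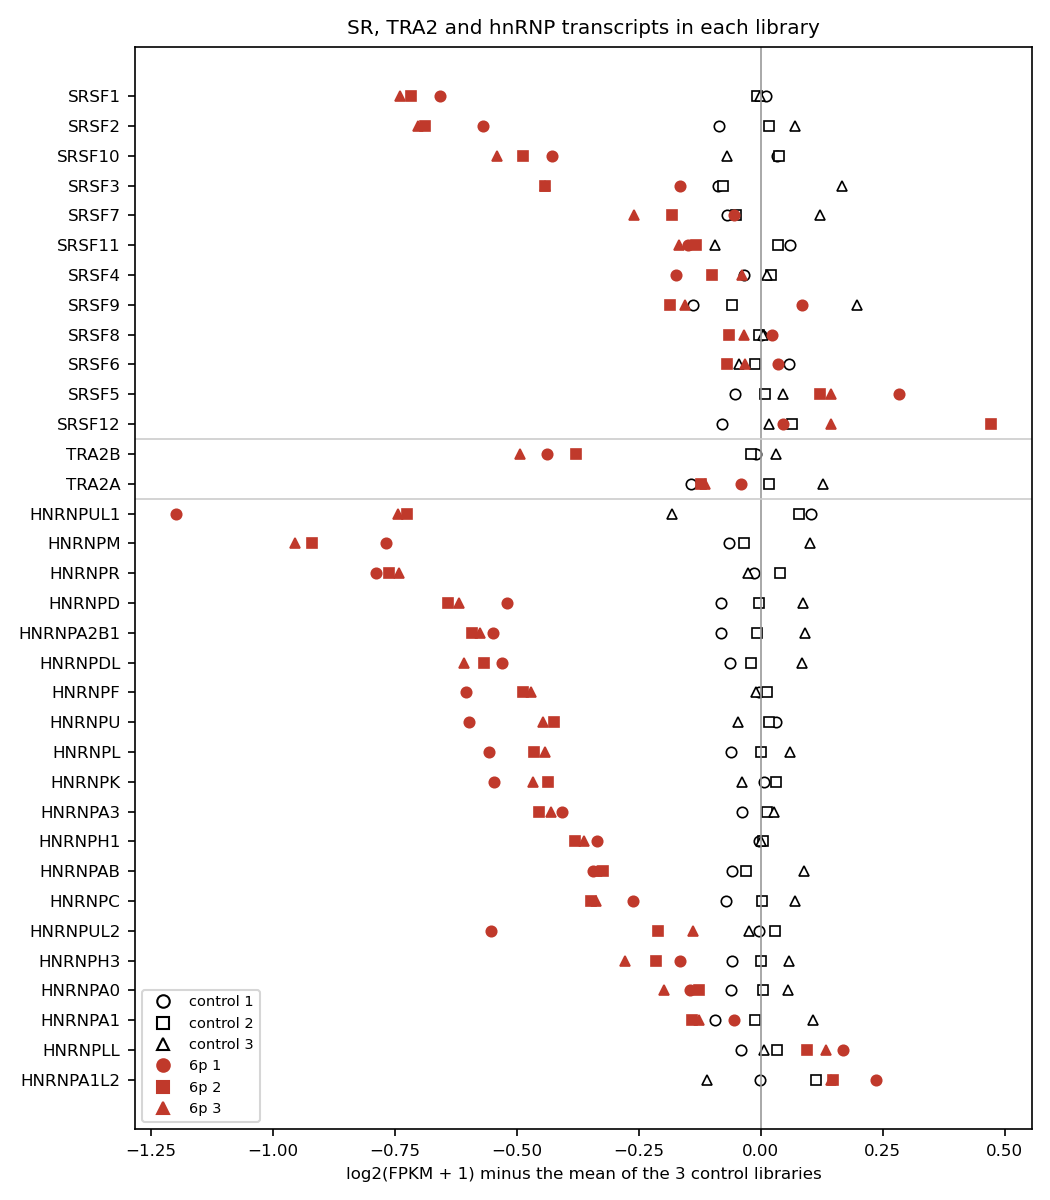
Difference of each library from the control mean on the log2(FPKM + 1) scale (x axis) for the 34 tested members (y axis, SRSF above, TRA2 between, hnRNP below); open symbols are controls, filled symbols 6p, and shapes give the replicate. In 24 members all 6p symbols lie left of all control symbols, and HNRNPUL1 in 6p replicate 1 lies farthest left.

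Because many members were lower together, their promoters were read for shared letters. RefSeq windows on GRCh38.p14 were found for 31 of the 34 tested members, and the 250 bases before the annotated start were searched on both strands, so that any window of a gene could count. The CCAAT box (CCAAT) stood in 13 of 19 members called lower and in 4 of 12 not called. It was also in 42.3% of 9593 tested genes with a window and in 49.1% of the 2444 of those that were called lower. GC boxes (GGGCGG) were in 67.7% of members and 76.4% of tested genes. The E-box CACGTG was in 5 of 31 members, all among the 19 called lower. It was in 11.4% of tested genes and in 12.6% of the 2444 called lower. The ETS motif CCGGAAG was in 16.1% of members against 19.8% of tested genes, and the TATA box TATAAA in 19.4% against 7.5%. In 0 of 31 members did the palindromic NRF1 motif, the CRE TGACGTCA, the ATF4 composite letters TGATGCAA, the E2F motif TTTCGCGC or the YY1 motif AAGATGGCG occur, and these letters were in between 0.584% and 3.51% of tested genes. These matches describe letters in a window and show no binding.

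Shown here are 4 members that fell and SRSF5, which was not called, because they span the promoter kinds found. Each run is the 250 bases before a RefSeq start, read 5′ to 3′ on the gene's strand, and capitals mark a motif. Distances below are from that RefSeq start. The spans of these genes in GENCODE reach farther upstream, so part of each run lies inside the gene there. The SRSF5 run lies wholly inside, as the GENCODE gene begins at 69726900. HNRNPM begins at 8444767 in GENCODE, so its E-box also lies inside that span. HNRNPR, on the minus strand at chr1:23344285-23344534, has 2 CCAAT boxes. HNRNPC, on the minus strand at chr14:21269443-21269692, has 3 CCAAT boxes, a TATA box and a GC box, the last beginning 30 bases before the start. HNRNPM, on the plus strand at chr19:8444725-8444974, has an E-box beginning 42 bases before the start. SRSF1, on the minus strand at chr17:58007247-58007496, has none of the 10 motifs searched. SRSF5, on the plus strand at chr14:69766892-69767141, has an ETS motif beginning 57 bases before the start.
HNRNPR: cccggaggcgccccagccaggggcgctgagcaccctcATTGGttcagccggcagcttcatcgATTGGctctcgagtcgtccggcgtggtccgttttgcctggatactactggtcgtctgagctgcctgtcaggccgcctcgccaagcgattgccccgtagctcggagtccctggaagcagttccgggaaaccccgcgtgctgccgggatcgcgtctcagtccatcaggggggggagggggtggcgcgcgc
HNRNPC: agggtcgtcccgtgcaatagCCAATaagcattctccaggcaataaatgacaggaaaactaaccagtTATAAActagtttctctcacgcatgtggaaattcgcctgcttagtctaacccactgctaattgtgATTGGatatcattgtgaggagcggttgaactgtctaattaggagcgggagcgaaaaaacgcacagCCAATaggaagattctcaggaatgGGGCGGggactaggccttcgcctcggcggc
HNRNPM: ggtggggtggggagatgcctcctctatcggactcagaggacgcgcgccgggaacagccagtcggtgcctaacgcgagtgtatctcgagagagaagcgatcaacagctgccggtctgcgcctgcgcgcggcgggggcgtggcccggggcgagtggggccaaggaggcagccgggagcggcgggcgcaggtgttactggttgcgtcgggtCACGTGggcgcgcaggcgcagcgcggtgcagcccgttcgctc
SRSF1: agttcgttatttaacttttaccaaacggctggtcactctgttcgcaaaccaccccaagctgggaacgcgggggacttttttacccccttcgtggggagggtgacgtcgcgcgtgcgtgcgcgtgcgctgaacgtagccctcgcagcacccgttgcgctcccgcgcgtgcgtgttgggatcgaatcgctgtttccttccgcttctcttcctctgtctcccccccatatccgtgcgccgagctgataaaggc
SRSF5: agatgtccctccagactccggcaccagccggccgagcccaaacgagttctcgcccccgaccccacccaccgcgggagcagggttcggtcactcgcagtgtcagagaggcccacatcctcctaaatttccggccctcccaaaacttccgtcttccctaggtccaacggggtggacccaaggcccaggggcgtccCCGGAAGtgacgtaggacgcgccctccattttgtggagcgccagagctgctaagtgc

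Among the SR proteins, SRSF1 and SRSF2 had the lowest fold changes. SRSF1, the first SR protein described and a proto-oncogene, was listed at 109.9, 108.6 and 109.1 FPKM in control replicates 1 to 3 and at 68.9, 66.0 and 64.9 FPKM in 6p replicates 1 to 3. The groups lay far apart, with less spread among controls than in most other members. The log2 fold change of SRSF1 was -0.71 ± 0.07 (adjusted p = 0.000178). Here and below, the error of a fold change is its SE and each adjusted p is from limma. SRSF2, the speckle protein also called SC35 and the SRSF gene with the highest mean FPKM, had 241, 259 and 268 FPKM in controls and 172, 158 and 157 FPKM in 6p. It fell by 0.65 on the log2 scale (adjusted p = 0.000722), with no overlap. SRSF10, known as a splicing repressor when dephosphorylated after heat shock, fell by 0.49 on the log2 scale, from 16.0 ± 0.696 to 11.2 ± 0.475 FPKM. SRSF10 is the longest tested member, at 10955 nt, and with the length trend removed it fell by 0.28 (adjusted p = 0.0193). Such pairs are means ± SD over the 3 libraries of a group. SRSF3, a small SR protein that also aids mRNA export, was at 99.9 ± 10.3 FPKM in control and 78.2 ± 9.04 FPKM in 6p. Its call (log2 fold change -0.35, adjusted p = 0.0299) was the weakest of the 4, and did not survive leaving out control replicates 2 or 3 or 6p replicates 2 or 3 (adjusted p up to 0.103). The SRSF3 call was also lost with the length trend removed (-0.29, adjusted p = 0.0507), and over all alternatives its adjusted p reached 0.127.

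The other 8 SRSF genes were not called. SRSF7 and SRSF11 stood at -0.17 ± 0.09 and -0.15 ± 0.07 on the log2 scale, SRSF4 at -0.10 ± 0.07 and SRSF9 at -0.09 ± 0.12. SRSF6 stood at -0.02 on the log2 scale with a 95% interval from -0.18 to 0.14, and SRSF8, a close relative of SRSF2, at -0.03 with an interval from -0.18 to 0.13. Intervals of this width leave room for small changes in either direction. After rescaling to TPM, SRSF4, SRSF7, SRSF9 and SRSF11 passed as lower, at log2 fold changes from -0.35 to -0.27. Of these, SRSF4 (-0.17, adjusted p = 0.0355) and SRSF9 (-0.31, adjusted p = 0.000990) also passed as lower with the length trend removed. SRSF5, also known as SRp40, was listed at 127.7, 133 and 137 FPKM in controls and 162, 144 and 146 FPKM in 6p. All 6p values of SRSF5 exceeded all controls, yet its log2 fold change of 0.18 ± 0.08 did not pass (adjusted p = 0.0955), and it was 0.0046 after rescaling to TPM. SRSF12, a relative of SRSF10, had 0.582, 0.747 and 0.690 FPKM in controls and 0.725, 1.32 and 0.848 FPKM in 6p, and the groups overlapped. These SRSF12 values rest on 44 to 95 fragments a library, and its 0.22 ± 0.11 did not pass (adjusted p = 0.144). Without control replicate 3 and 6p replicate 1, 2 SRSF genes passed as higher, SRSF5 and SRSF12.

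TRA2A and TRA2B, the human counterparts of the fly sex-determination factor transformer-2, bind purine-rich exonic enhancers. TRA2B was listed at 51.2, 50.9 and 52.7 FPKM in controls and 37.8, 39.5 and 36.4 FPKM in 6p. It fell by 0.44 on the log2 scale (SE 0.07, adjusted p = 0.00155), with no overlap between groups. TRA2A stood at 30.3 ± 2.93 FPKM in control and 28.2 ± 0.931 FPKM in 6p, with overlapping groups and a log2 fold change of -0.09 ± 0.08 (adjusted p = 0.393). TRA2A was called lower with the length trend removed (-0.17, adjusted p = 0.0484) and after rescaling to TPM (-0.27, adjusted p = 0.0173).

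Within the hnRNPs, HNRNPUL1, HNRNPM and HNRNPR had the lowest fold changes. HNRNPUL1, a relative of HNRNPU known to act at DNA breaks and in mRNA export, had 408, 401 and 335 FPKM in controls and 165, 229 and 226 FPKM in 6p. All 6p libraries lay below all controls, but control replicate 3 and 6p replicate 1 were both lower than the rest of their groups. Its log2 fold change of -0.89 ± 0.15 (adjusted p = 0.00222) had the largest SE of all members. HNRNPM, which binds GU-rich sequences and sets exon choice in epithelial-mesenchymal transition, was at 167, 171 and 188 FPKM in controls and 102, 92.0 and 89.7 FPKM in 6p. It fell by 0.88 on the log2 scale (SE 0.09, adjusted p = 0.000206), and its 6p mean was 54.1% of the control mean. HNRNPR, a neighbour in sequence of SYNCRIP, had 36.01, 37.4 and 35.7 FPKM in controls and 20.6, 21.0 and 21.4 FPKM in 6p. Its groups were tight and separate, with a log2 fold change of -0.76 ± 0.06 (adjusted p = 9.8e-05), the lowest adjusted p of all members. HNRNPU, the scaffold attachment factor, fell by 0.49 on the log2 scale, from 146 ± 4.204 to 103.6 ± 6.82 FPKM. HNRNPUL2 was at 39.1 ± 0.754 FPKM in control and 31.7 ± 4.82 FPKM in 6p, a log2 fold change of -0.30 ± 0.11 that missed the threshold (adjusted p = 0.0520). In 6p replicate 1 HNRNPUL2, whose library values are given after they were seen, was at 26.3 FPKM and in the other 2 at 33.6 and 35.3 FPKM. It was called lower after rescaling to TPM (-0.48, adjusted p = 0.0298). Its adjusted p in limma ran from 0.0400 to 0.145 on leaving out 1 library, and from 0.00411 to 0.145 over all alternatives.

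HNRNPUL2 overlaps the readthrough gene HNRNPUL2-BSCL2 on the same strand in GENCODE. HNRNPH2 likewise lies inside the readthrough gene RPL36A-HNRNPH2. It held 1, 2 and 1 fragments in controls and 0 in each 6p library, and was not tested. The sources used here do not say how fragments in overlapping genes were assigned, so the values of both genes are uncertain. HNRNPCL1, a relative of HNRNPC and the other untested member, held 1 fragment in 6p replicate 3 and 0 elsewhere.

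The A/B/D branch holds RNA-binding proteins that silence exons and control mRNA stability, and 5 of its 7 members fell. HNRNPD, also called AUF1 and known for binding AU-rich elements of short-lived mRNAs, had 180, 190 and 202 FPKM in controls and 132, 122 and 124 FPKM in 6p. Its log2 fold change was -0.59 ± 0.08 (adjusted p = 0.000971), with no overlap. HNRNPA2B1, an exon silencer and reader of RNA sorting signals, fell by 0.57 on the log2 scale, from 378 ± 22.7 to 254 ± 3.87 FPKM. HNRNPDL, the near relative of HNRNPD, fell by 0.57 on the log2 scale, HNRNPA3 by 0.43 and HNRNPAB by 0.34. The HNRNPAB call did not survive leaving out control replicate 2 or 6p replicate 3 (adjusted p up to 0.0560). HNRNPA1, the exon silencer with the highest FPKM of all members, was at 560.2, 593 and 643 FPKM in controls and 576, 542 and 547 FPKM in 6p. These groups overlapped, and its log2 fold change was -0.11 ± 0.10, with a 95% interval from -0.33 to 0.11 (adjusted p = 0.386). HNRNPA1 was called lower after quantile normalization (-0.40, adjusted p = 0.00261) and after rescaling to TPM (-0.29, adjusted p = 0.00469). HNRNPA0 stood at -0.16 ± 0.07 on the log2 scale (adjusted p = 0.0885), at 0.031 with the length trend removed and at -0.34 after rescaling to TPM, where it was called lower (adjusted p = 0.00917).

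GENCODE lists 74 pseudogenes named after HNRNPA1 and 16 after HNRNPA3, so fragments of these genes could have been split or shared. HNRNPA1L2, a gene copy close to HNRNPA1, had 4.43, 4.88 and 4.03 FPKM in controls and 5.41, 5.02 and 5.00 FPKM in 6p. All 6p values were higher, but the log2 fold change of 0.18 ± 0.09 did not pass (adjusted p = 0.121), and the same doubt over shared fragments holds for it.

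All 3 tested members of the F/H branch, which binds runs of G, were called lower. HNRNPF had 132, 134 and 132 FPKM in controls and 87.0, 94.4 and 95.5 FPKM in 6p, a log2 fold change of -0.52 ± 0.07 (adjusted p = 0.00102). HNRNPH1, the most abundant per length of the branch, had 191.5, 193 and 192 FPKM in controls and 152, 147 and 149 FPKM in 6p. Its fall was smaller, at -0.36 ± 0.07 (adjusted p = 0.00513). HNRNPH3 fell by 0.22 on the log2 scale (adjusted p = 0.0400), and this call was lost on leaving out any library but 6p replicate 1 (adjusted p up to 0.147).

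The remaining branches have 1 or 2 tested members each. HNRNPK, which binds C-rich RNA and DNA, had 353, 359 and 342 FPKM in controls and 240.1, 259 and 254 FPKM in 6p, a log2 fold change of -0.48 ± 0.08 (adjusted p = 0.00250). HNRNPC, which wraps nascent transcripts at U-rich stretches and keeps Alu-derived exons out, had 165, 174 and 182 FPKM in controls and 145, 136 and 137 FPKM in 6p. It fell by 0.32 on the log2 scale (adjusted p = 0.0126), a call that did not survive leaving out control replicate 2 or 6p replicates 2 or 3 (adjusted p up to 0.0625). HNRNPL, which binds CA repeats, had 238, 248 and 259 FPKM in controls and 168, 179.7 and 182 FPKM in 6p. Its log2 fold change was -0.49 ± 0.08 (adjusted p = 0.00230). Its paralog HNRNPLL, known for switching CD45 isoforms in lymphocytes, stood higher, at 14.0 ± 0.393 FPKM in control and 15.5 ± 0.422 FPKM in 6p with no overlap. That difference of 0.13 ± 0.07 on the log2 scale did not pass (adjusted p = 0.136), and it was -0.037 after rescaling to TPM.

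**Figure D2:**
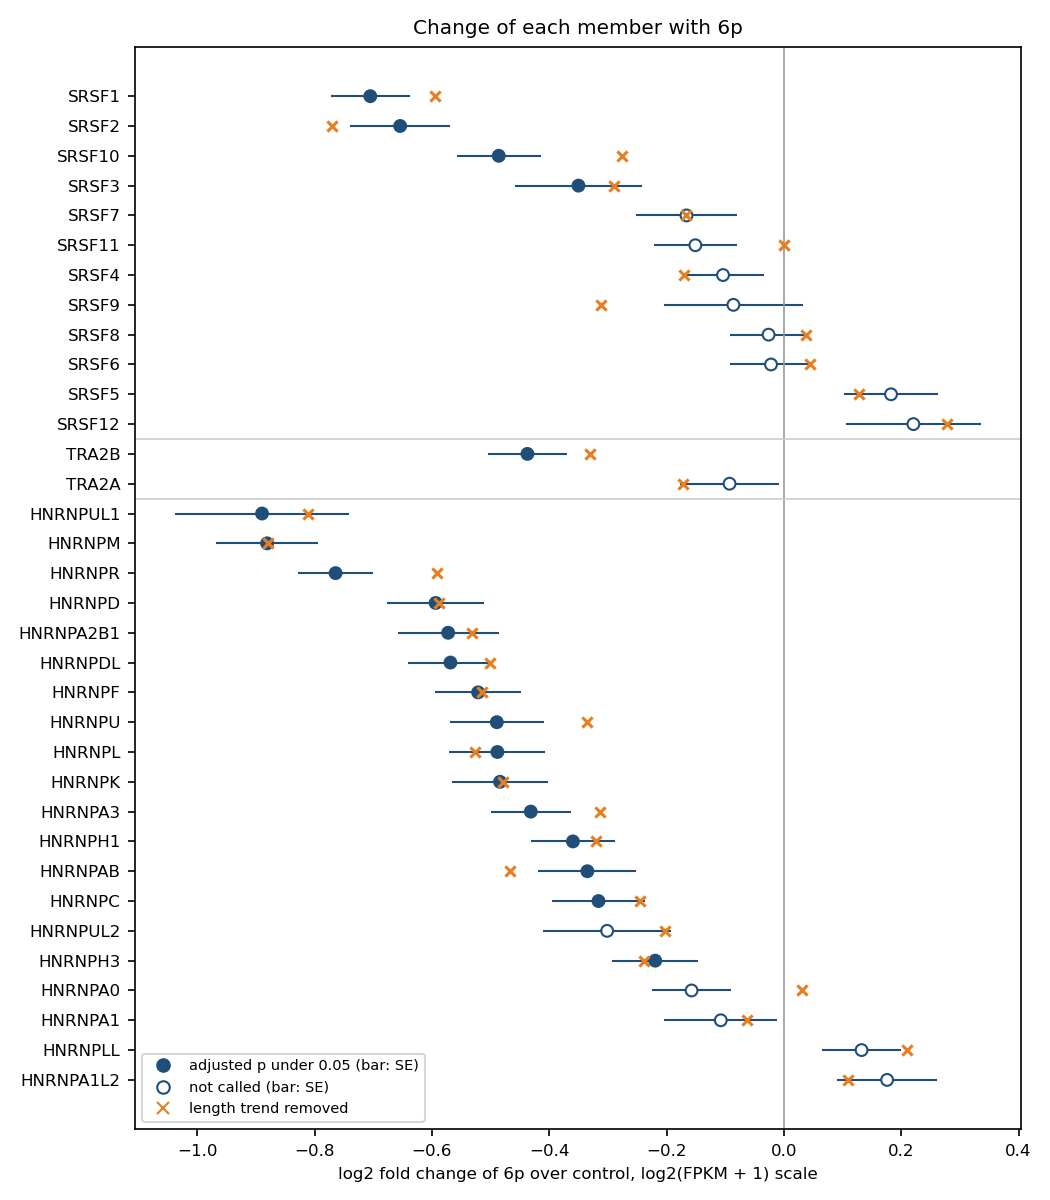
Log2 fold change of 6p over control on the log2(FPKM + 1) scale with its SE (x axis) for each tested member (y axis); filled circles passed adjusted p under 0.05, open circles did not, and crosses give the value with the length trend removed. HNRNPUL1, HNRNPM and HNRNPR lie lowest in the hnRNPs and SRSF1 lowest in the SR proteins.

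Genes named above lie as follows in GENCODE release 29 on GRCh38, and all are protein-coding. SRSF1 (NCBI gene 6426) lies on chromosome 17, 58003360 to 58007346, and SRSF2 (6427) on chromosome 17, 76734115 to 76737374. TRA2B (6434) lies on chromosome 3, 185915906 to 185938136, and SRSF5 (6430) on chromosome 14, 69726900 to 69772005. HNRNPUL1 (11100) lies on chromosome 19, 41262496 to 41307598, and HNRNPM (4670) on chromosome 19, 8444767 to 8489114. HNRNPR (10236) lies on chromosome 1, 23303771 to 23344336. In this annotation SRSF1 and HNRNPL also overlap a protein-coding gene on the same strand. SRSF2, SRSF9, HNRNPA2B1, HNRNPAB, HNRNPH3, HNRNPU and HNRNPUL1 overlap one on the opposite strand. The sources used here do not say whether counting used strand, so reads of such pairs may not be told apart.

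Ratios between members within a library need no scaling between libraries, and 7 such ratios, chosen after the values were seen, are described here. With 3 libraries against 3, a two-sided exact permutation test cannot go below p = 0.1, so none could pass 0.05. HNRNPA1 over HNRNPA2B1 was 1.57, 1.58 and 1.601 in controls and 2.23, 2.17 and 2.16 in 6p, each a ratio of FPKM. HNRNPLL over HNRNPL was 0.0571, 0.0579 and 0.0544 in controls and 0.0944, 0.0837 and 0.0848 in 6p, so its 6p mean was 1.55 times the control mean. TRA2A over TRA2B was 0.531, 0.5996 and 0.626 in controls and 0.775, 0.700 and 0.764 in 6p. In all of these the groups were separate, and each reached the smallest exact p of 0.1 (0.117 adjusted over the 7 ratios).

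SRSF5 over SRSF1, a pair of SR proteins that are not close paralogs, went from 1.21 ± 0.0476 to 2.26 ± 0.0800, the widest shift of the 7. HNRNPUL2 over HNRNPUL1 was 0.103 ± 0.0102 in control and 0.154 ± 0.00663 in 6p, and HNRNPH3 over HNRNPH1 was 0.547 ± 0.0213 and 0.603 ± 0.0200. Both pairs of groups were separate, again at the exact permutation p of 0.1. HNRNPDL over HNRNPD was 0.363 ± 0.00432 in control and 0.368 ± 0.0113 in 6p, with overlapping groups (exact permutation p = 0.6). Fold differences between 2 genes of unequal length can take up the length trend of the libraries. HNRNPA1 and HNRNPA2B1 differ little in length, with a ratio of 1.02, while TRA2A is shorter than TRA2B by a ratio of 0.402 and SRSF5 shorter than SRSF1 by a ratio of 0.436. The length ratio was 1.81 for HNRNPLL over HNRNPL, 0.769 for HNRNPH3 over HNRNPH1, 1.43 for HNRNPDL over HNRNPD and 1.10 for HNRNPUL2 over HNRNPUL1. With the length trend removed, the log2 fold changes were 0.13 for SRSF5 and -0.59 for SRSF1, against 0.18 and -0.71 before. For TRA2A and TRA2B they were -0.17 and -0.33, against -0.09 and -0.44 before, so this pair then differed less. HNRNPLL and HNRNPL then stood at 0.21 and -0.53, against 0.13 and -0.49 before. HNRNPH3 and HNRNPH1 stood at -0.24 and -0.32, against -0.22 and -0.36 before.

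**Figure D3:**
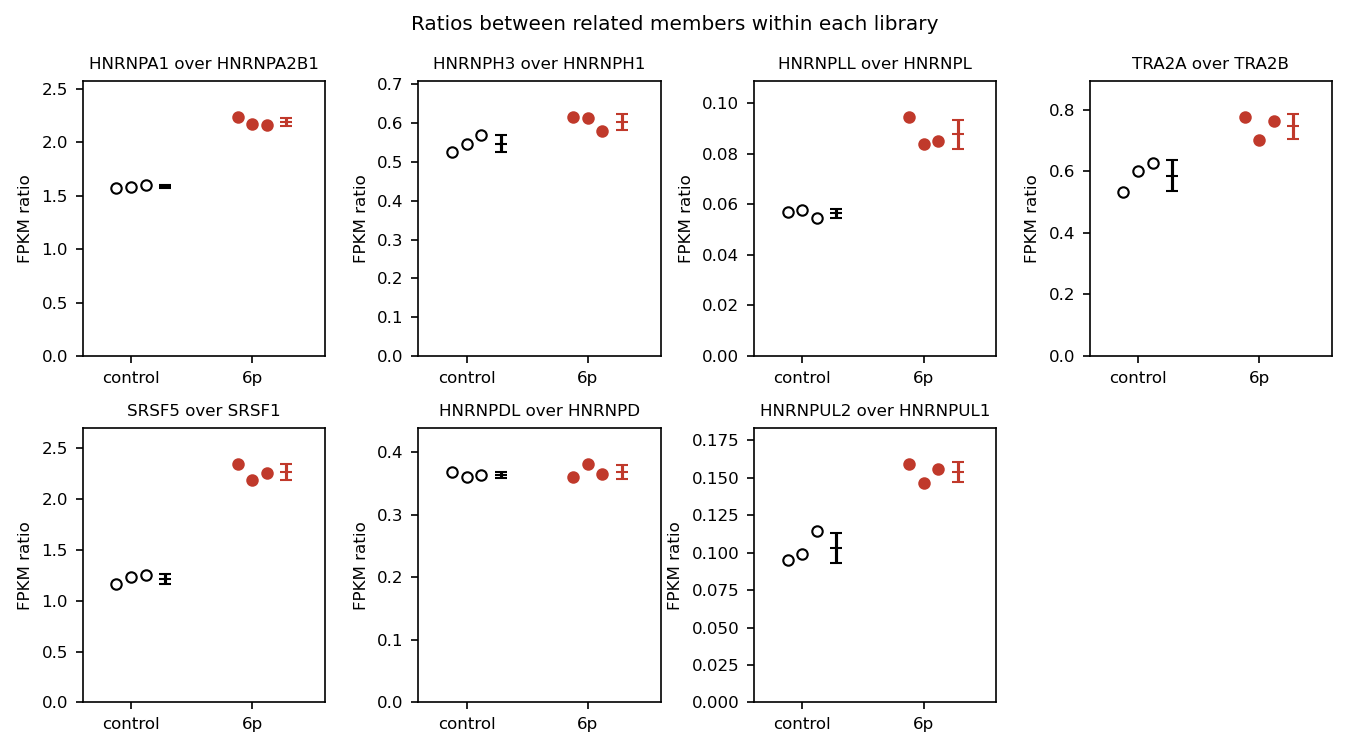
Ratio of FPKM between related members (y axis, from 0) in each control (open) and 6p (filled) library, with mean and SD beside the points. The ratio HNRNPA1 over HNRNPA2B1 sits between 1.57 and 1.601 in controls and between 2.16 and 2.23 in 6p, while HNRNPDL over HNRNPD overlaps.

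Summed levels and shares within each family are given as values without a test, for genes chosen after their values were seen. The FPKM of all SRSF genes summed to 994, 1027 and 1099 in controls and to 929.8, 836 and 839 in 6p. SRSF2 made up 24.6% ± 0.495 of that sum in control and 18.7% ± 0.219 in 6p, and SRSF1 10.5% ± 0.571 and 7.68% ± 0.249. SRSF5 made up more in 6p, from 12.8% ± 0.283 to 17.4% ± 0.0998. FPKM over the hnRNP genes summed to 3605, 3711 and 3779 in controls and to 2692, 2735 and 2735 in 6p. HNRNPA1 made up 16.2% ± 0.767 of it in control and 20.4% ± 0.851 in 6p. The hnRNP sum was 3.56 ± 0.105 times the SRSF sum in control and 3.14 ± 0.214 times in 6p, and the groups were separate.

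Control replicate 3 and 6p replicate 1 stood apart from the rest of their groups over all genes, with shorter genes reading higher and longer genes lower. The members shared this in part. Over the 34 members, Spearman's rho between gene length and the difference of control replicate 3 from the other controls was -0.499, and for 6p replicate 1 against the other 6p libraries it was -0.336. Over all 11745 tested genes the same measures were -0.677 and -0.517. Between gene length and the log2 fold change of 6p over control, rho was -0.230 over the 34 members. It was -0.367 over all tested genes, so the trend also enters the contrast between the groups. Genes in one library share its depth and composition, so no p is attached. SRSF9, the shortest tested member at 1152 nt, read 0.30 higher on the log2 scale in control replicate 3 and 0.26 higher in 6p replicate 1. SRSF3, at 4228 nt, read 0.25 and 0.28 higher, whereas HNRNPUL1, at 4748 nt, read 0.27 and 0.46 lower in these libraries. HNRNPUL2, at 5214 nt, read 0.38 lower in 6p replicate 1.

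The members' median length, 3910.5 nt, was close to the 3904 nt of all tested genes. With each library's length trend removed, 22 members were lower and 2 higher, HNRNPLL and SRSF12, and the hnRNP and SRSF medians were -0.40 and -0.17. SRSF9 then stood at -0.31 (adjusted p = 0.000990), SRSF2 at -0.77 and SRSF1 at -0.59. Without the 2 libraries that stood apart, 24 members were lower and 2 higher. FPKM over all listed genes summed to 362369, 373561 and 405960 in control replicates 1 to 3 and to 459212, 414611 and 419087 in 6p replicates 1 to 3. Rescaling to TPM, which divides by this sum, moved the median of all tested genes from -0.04 to -0.21 on the log2 scale. It turned the split of all calls from 2506 higher and 2951 lower to 1526 and 3991. It left 28 members lower, including 8 of 12 SRSF genes.

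**Figure D4:**
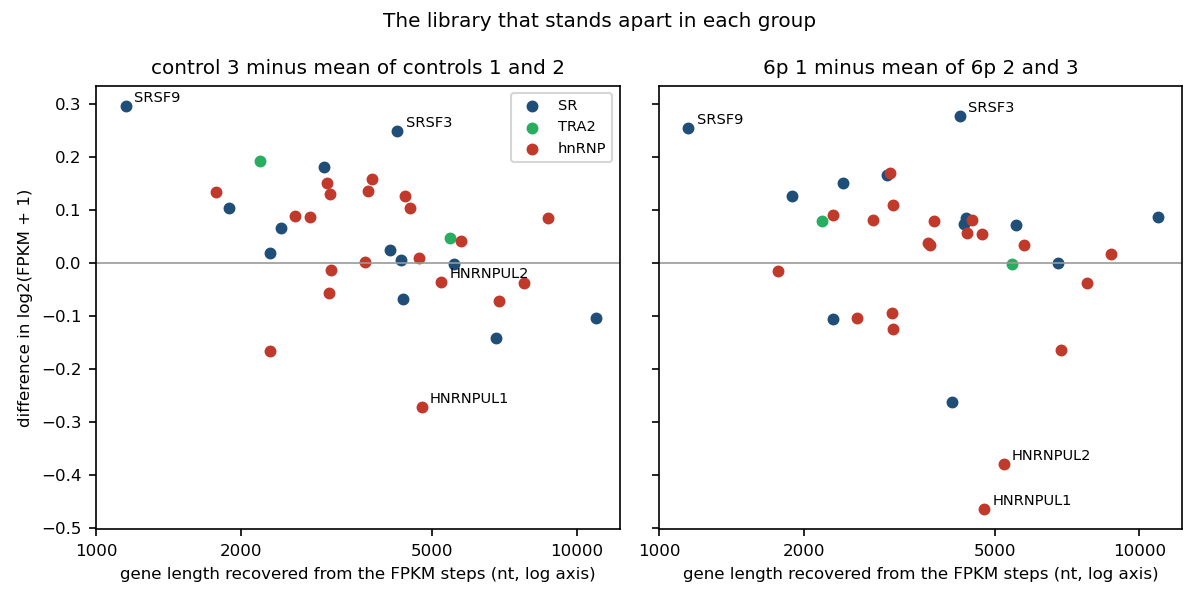
Gene length (x axis, nt, log scale) against the difference in log2(FPKM + 1) of control replicate 3 from the other controls (left) and of 6p replicate 1 from the other 6p libraries (right), each point a tested member coloured by family. SRSF9 and SRSF3 lie highest in both panels and HNRNPUL1 lowest.

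Other genes around these families were taken from 4 lists. Beside their counts, 21.3% of all tested genes were called higher and 25.1% lower, with a median log2 fold change of -0.04. Of kinases, methyltransferases and import receptors that act on SR proteins and hnRNPs, 1 of 13 tested genes was higher and 7 (53.8%) were lower. Their median was -0.23. TNPO2, an import receptor related to the one that carries HNRNPA1, had 37.2, 34.4 and 30.2 FPKM in controls and 15.7, 22.3 and 21.3 FPKM in 6p. PRPF4B, a kinase of the spliceosome, had 29.2, 27.7 and 21.97 FPKM in controls and 14.4, 15.9 and 16.2 FPKM in 6p. Both were separate between groups, at log2 fold changes of -0.76 ± 0.14 and -0.72 ± 0.11. CLK3, one of the kinases that release SR proteins from speckles, had 18.4, 19.9 and 18.9 FPKM in controls and 21.9, 23.1 and 24.2 FPKM in 6p. Its rise of 0.26 ± 0.07 (adjusted p = 0.0179) was lost with the length trend removed (0.15, adjusted p = 0.120), after rescaling to TPM, and without control replicate 1 or 6p replicates 2 or 3. SRPK1, the cytoplasmic SR kinase, fell from 53.3 to 38.9 FPKM in the mean and TNPO3, the import receptor of SR proteins, from 29.7 to 21.5 FPKM, both named after their values were seen. The TNPO3 call (adjusted p = 0.0240) was lost without control replicate 1 (0.0829) or control replicate 2 (0.0720).

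Of SR-related and nuclear speckle proteins, 1 of 31 tested genes was higher and 12 were lower, with a median of -0.24. The lower share was 38.7%, beside 25.1% of all tested genes. BCLAF1, an SR-related transcription and splicing factor, had 39.3, 37.8 and 33.7 FPKM in controls and 18.2, 21.2 and 21.1 FPKM in 6p (-0.84 ± 0.09, adjusted p = 0.000307). SRRM2, a scaffold of nuclear speckles, spread widely, with 66.3, 58.2 and 39.5 FPKM in controls and 18.1, 36.5 and 35.4 FPKM in 6p. Its call (-0.88 ± 0.28, adjusted p = 0.0325) was lost without control replicates 1 or 2 or 6p replicate 1 (adjusted p up to 0.106). CCNL2, a speckle cyclin that pairs with CDK11, went the other way, with 34.5, 32.1 and 32.5 FPKM in controls and 51.6, 58.3 and 58.7 FPKM in 6p. It rose by 0.75 ± 0.08 on the log2 scale (adjusted p = 0.000255), and by 0.84 with the length trend removed.

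RNA-binding proteins counted with the hnRNPs under other symbols had 3 of 22 tested genes higher and 14 lower, with a median of -0.33. The lower share was 63.6%, beside 25.1% of all tested genes. PTBP1, the pyrimidine tract binder once called hnRNP I, had 247, 249.6 and 225 FPKM in controls and 128, 153 and 152 FPKM in 6p (-0.74 ± 0.10, adjusted p = 0.000803). SFPQ, a paraspeckle protein, had 70.9, 71.8 and 66.9 FPKM in controls and 37.8, 42.1 and 45.2 FPKM in 6p (-0.73 ± 0.08, adjusted p = 0.000384). In both, every 6p library lay below every control. CIRBP, the cold-inducible protein once called hnRNP A18, had 43.5, 43.0 and 50.4 FPKM in controls and 94.9, 84.4 and 81.1 FPKM in 6p. It rose by 0.91 ± 0.09 on the log2 scale (adjusted p = 0.000238). RBM3, the other cold-inducible protein of this list, had 77.1, 80.3 and 88.1 FPKM in controls and 109.8, 101 and 101 FPKM in 6p, a rise of 0.34 ± 0.08 (adjusted p = 0.0105) that missed the threshold without control replicate 2 (adjusted p = 0.0549). The last riser, PCBP4, is named after its values were seen and went from 22.1 to 28.1 FPKM in the mean. The PCBP4 call was lost after rescaling to TPM (adjusted p = 0.276), without control replicate 2 (0.0620) and without 6p replicate 3 (0.0610). In the list, 1 gene was called higher without control replicate 2 and 2 without 6p replicate 3.

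Of other splicing regulators, 0 of 17 tested genes were higher and 8 were lower in limma, with a median of -0.18. The lower share was 47.1%, beside 25.1% of all tested genes, and 0 listed genes were higher at an unadjusted p under 0.05. The count of lower genes was 4 without control replicate 1, 3 without control replicate 2 and 5 without 6p replicate 3. MBNL1, a regulator of developmental splicing, had 28.5, 26.5 and 20.8 FPKM in controls and 13.7, 14.3 and 14.8 FPKM in 6p (-0.77 ± 0.11, adjusted p = 0.00132). QKI, which governs splicing and circular RNA formation, had 18.7, 16.5 and 13.1 FPKM in controls and 9.02, 10.5 and 9.34 FPKM in 6p (-0.68 ± 0.13, adjusted p = 0.00359). Both genes are long, with control replicate 3 the lowest of the controls, and with the length trend removed they stood at -0.60 and -0.46.

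**Figure D5:**
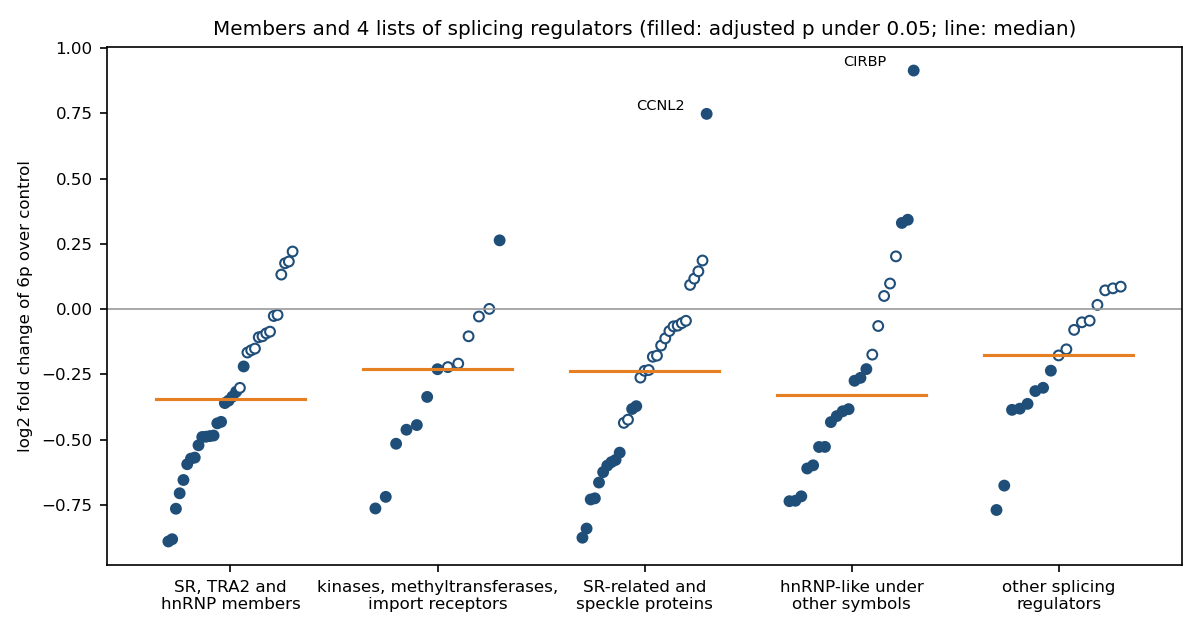
Log2 fold change of 6p over control (y axis) for the 34 tested members and for 4 lists of other splicing genes, sorted within each column; filled points passed adjusted p under 0.05 and the line is the median. The medians run from -0.34 for the members to -0.18 for other splicing regulators, and CIRBP and CCNL2 stand highest.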

How the data were processed

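Poly(A) RNA libraries of 3 control and 3 6p samples were made with a stranded TruSeq kit (per the labels' protocols). For each gene the deposited value is FPKM, computed by the authors. Per the submitters' processing notes, Trimmomatic, HISAT2, HTSeq and Cufflinks were used with the build GRCh38, whereas the sources used here give no roles, versions, annotation release or row filter. FPKM corrects for gene length only where libraries share one length dependence.

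Library totals and gene lengths were recovered from the steps of the FPKM values (Python 3.11.15, numpy 2.4.6, pandas 2.3.3). For all 11745 tested genes (100%) the recovered fragments were whole in all 6 libraries, within 0.00001 of a fragment. Replicate pairs differed by more than sampling noise, with chi-square per degree of freedom from 2.06 to 33.4. The tested genes had a mean of at least 0.5 FPKM. Log2(FPKM + 1) values were fitted with limma 3.58.1 under R 4.3.3, with eBayes moderation using its trend and robust options. Tests were two-sided, p-values were adjusted by Benjamini and Hochberg over all tested genes, and the threshold was 0.05. A fold change on this scale understates the change of low genes. The fit was checked on simulated counts with known changes. These were drawn with the same dispersion for all genes and no length trend, so the check does not cover that trend. No sample was left out or imputed, and 0 columns of sample values were unused. A further marker of the line is not reported here.

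The members and lists were chosen with earlier results of these data known. Values by library are given for the called member with the largest fold change in each direction and the member with the highest mean in each branch. They are also given for the 3 members at each end of the fold changes and for the 2 called genes of each list with the largest change in each direction. Genes named outside this rule are said to be so, or are given by mean or fold change only. Alternatives included pseudocounts 0.1 and 0.01, other filters (none, 1 FPKM, 5 FPKM) and 4 scalings (median recentring, upper quartile, quantile and TPM). Further ones were eBayes with neither option, removal of each library's loess trend on log2 length (span 0.5), leaving out the 2 libraries that stood apart, voom on recovered fragments, a block for the replicate number, and each library left out in turn.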

Additional observations from a re-analysis of the deposited data

How the results depend on the processing

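Of the 20 members called lower, 16 kept their call and direction under all 20 alternatives. The other 4, SRSF3, HNRNPAB, HNRNPC and HNRNPH3, lost the call under at least 1. Over the alternatives that leave out 1 library, 16 to 20 members were lower and 0 higher. Whether the replicate number pairs the samples is not known. Deviations of same-numbered libraries correlated at -0.569, 0.326 and -0.417, and not every library correlated best with its own number. The highest correlation, 0.634, was between control replicate 3 and treated replicate 1, the libraries that stood apart with gene length. Because the length trend enters these deviations, they cannot decide whether samples were paired by culture or day. With the replicate block, 16 members were lower and 0 higher, and all called genes went from 5457 to 3694.

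Higher members numbered 1 after median recentring, 1 after quantile normalization (HNRNPA1L2, in the hnRNP family, in both), 2 with the length trend removed (1 SRSF and 1 hnRNP gene) and 2 without the 2 libraries that stood apart (2 SRSF genes). Lower SRSF genes numbered 8 after rescaling to TPM. The SR family median log2 fold change was -0.067 after median recentring, -0.31 in TPM and -0.17 with the length trend removed, and ran from -0.16 to -0.10 on leaving out 1 library. The hnRNP family median log2 fold change was -0.40 after median recentring, -0.53 after quantile normalization, -0.638 in TPM and -0.40 with the length trend removed.

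The 1 higher gene among kinases, methyltransferases and import receptors became 0 in TPM, with the length trend removed and with the replicate block, and 0 to 1 on leaving out 1 library. Higher SR-related genes numbered 2 with a mean of at least 5 FPKM, 2 after median recentring, 2 after upper-quartile scaling, 3 after quantile normalization, 3 with the length trend removed and 5 without the 2 libraries, where 19 were lower. Among hnRNP-like genes under other symbols, 5 were higher without the 2 libraries and 1 to 4 on leaving out 1 library. Of other splicing regulators, 1 was higher and 5 lower with no filter, 3 were lower with the replicate block and 3 to 8 on leaving out 1 library. The cause of these shifts was not tested.

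Changes of sign concerned members that were not called, both in the reported fit and under the alternatives named here, although HNRNPA0, HNRNPLL, SRSF9 and SRSF11 were called under other alternatives. HNRNPA0 read 0.031, SRSF11 0.00078, SRSF6 0.044 and SRSF8 0.038 with the length trend removed, and HNRNPLL read -0.037 in TPM. After median recentring SRSF6 read 0.039 and SRSF8 0.035. SRSF6 read 0.0056 after upper-quartile scaling and ran from -0.0502 to 0.0066 on leaving out 1 library (0.0014 without 6p replicate 2), SRSF8 read 0.021 after quantile normalization, and SRSF9 ran from -0.17 to 0.013.

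A listed value above 0 rests on 1 or 2 fragments in HNRNPH2 and on 1 fragment in HNRNPCL1, and no fold change is given for them.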
